A study of Mus musculus with 8 samples.

Results

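Regulatory T (Treg) cells are CD4 T cells that hold immune responses in check, and 48 genes of their cell cycle and DNA replication machinery are described here. The genes were picked by symbol and function, with earlier results of these data known, and all 48 were found among the 57180 rows of the deposited gene table. They fall into 7 role groups, from the G1 cyclins to the proteins of the spindle. The study sequenced RNA from mouse Treg cells isolated by flow cytometric sorting, in a series on copper and the suppressive capacity of these cells. Its 8 libraries carry the labels chimera WT (5 libraries) and chimera KO (3 libraries), and both groups are sorted Treg cells. The labels used here do not name the deleted gene, the strain, the age, a treatment or how the chimeras were made, and while the design states that the cells came from different mice, no library is tied to 1 animal. P-values therefore measure the spread between these libraries. The terms WT and KO below stand for those labels, which could not be checked against a deleted gene.

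A cell that starts to divide makes D-type cyclins, whose kinases Cdk4 and Cdk6 phosphorylate the retinoblastoma protein and so release E2F transcription factors. E2F factors turn on genes for S phase, among them cyclin E, the MCM helicase, the clamp PCNA and the enzymes that make deoxynucleotides. Later, B-type cyclins with Cdk1, the Polo and Aurora kinases and the kinetochore proteins carry the cell through mitosis. The inhibitors p21 (Cdkn1a) and p27 (Cdkn1b) bind cyclin-kinase complexes and can halt this course. Treg cells are known to divide in the body more often than other resting CD4 T cells, and interleukin-2 and T cell receptor signals drive that division.

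The libraries held 4314445 (KO replicate 3) to 17977089 (WT replicate 4) estimated counts. Levels below are normalised CPM, counts scaled to a common library total after correction with TMM factors, which allow for differences in RNA composition. These factors ran from 0.4 (WT replicate 4) to 1.49 (KO replicate 2). Between 8250 and 14318 genes had at least 10 counts in a library, with the fewest in WT replicates 4 (8250) and 5 (9484). All 8 T cell markers examined had at least 10 counts in each library, and Cd8a had at most 6 counts in any. The summed level of these T cell markers was 3957, 3631, 2928, 18363 and 8539 in WT replicates 1 to 5 and 2535, 1401 and 1369.5 in KO replicates 1 to 3, so on this scale each KO library lay below each WT library. With total-count scaling the sum in KO replicate 1 lay above that in WT replicate 3, so the groups overlapped there. That of the 5 Treg markers was 3511, 6011, 5157, 2845 and 2186 in the WT and 2562, 1022 and 635 in the KO libraries. All 5 Treg markers examined reached 10 counts in 7 libraries, while in WT replicate 5 Foxp3, the factor that defines Treg cells, had 9 counts. In normalised CPM Foxp3 stood at 11.9, 36.6, 41.9, 3.09 and 1.26 in the WT and at 26.6, 2.69 and 24.2 in the KO libraries. It was thus low in WT replicate 4 and KO replicate 2 as well. WT replicate 5 also held 8 of 16 erythroid markers at 10 or more counts. Their summed level there was 10146 normalised CPM, against 0.14 to 53.6 in the other 7 libraries. Its haemoglobin and Ahsp counts were high but Alas2, Klf1, Epor and Slc4a1 were at 0. WT replicate 4 had the highest summed level of CD8 T and NK markers, 4276 against 4.49 to 144 elsewhere, with 4 of 10 markers at 10 or more counts and Cd8a and Ncr1 at 0. It likewise had the highest summed level of B cell markers, 3167 against 82.5 to 559, with 6 of 10 markers at 10 or more counts. The part of these other cells in the levels below was not tested. In sorted bulk samples, fewer cycling cells and less cell cycle RNA per cell cannot be told apart.

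**Figure D1:**
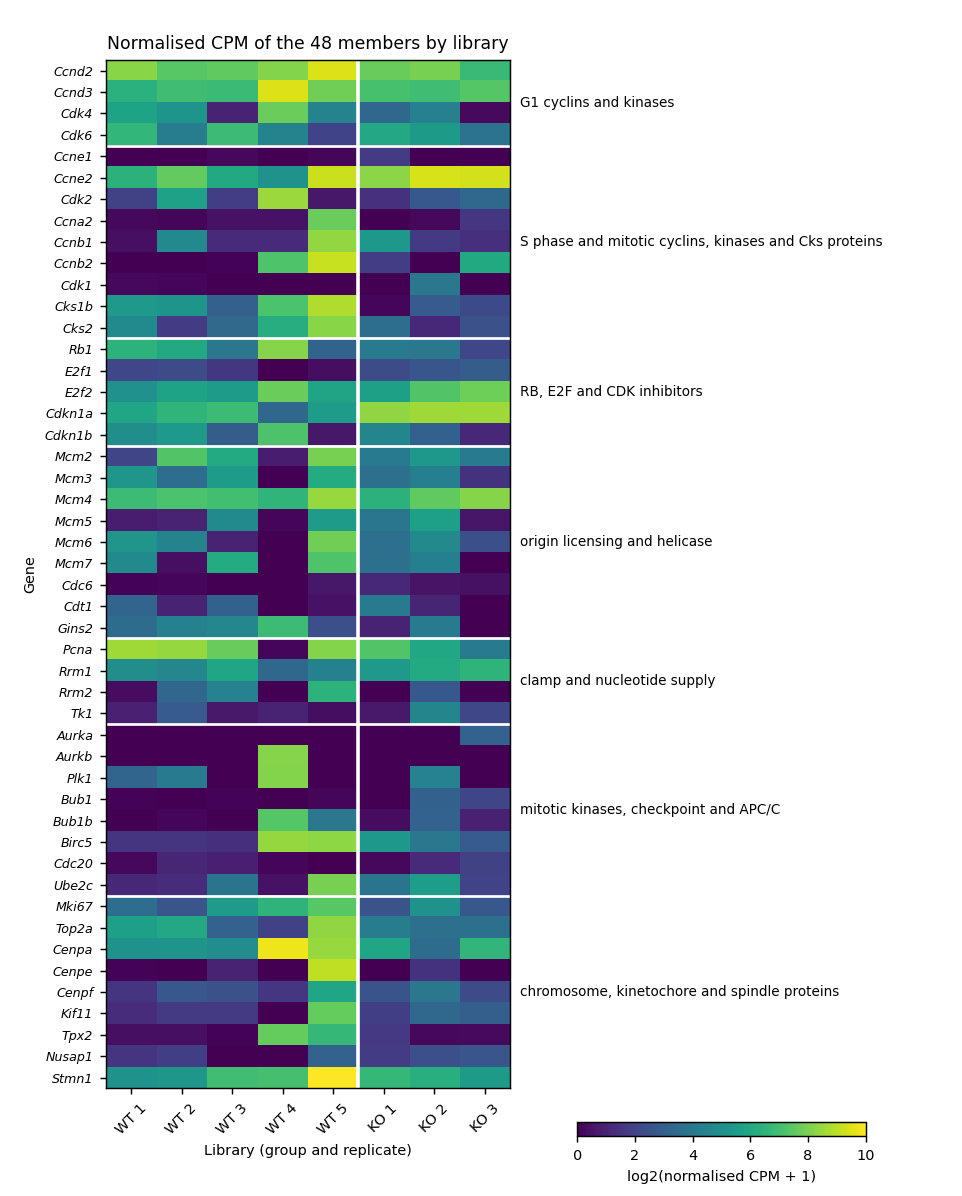
Normalised CPM of the 48 genes (rows, grouped by role) in the 8 libraries (columns), as log2(normalised CPM + 1) on a colour scale from 0 to 10. High levels of mitotic genes gather in WT 4 and WT 5, while Cdkn1a is higher in the 3 KO libraries than in the 5 WT libraries.

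Across the 48 genes the comparison of KO with WT libraries in normalised CPM gave 1 gene that was higher in each KO library than in any WT library, the p21 gene Cdkn1a, and 1 that was lower in each, the kinase subunit gene Cks1b. By total count alone Cdkn1a still separated the groups, while Cks1b did not. Genes of mitosis were mostly low in WT replicates 1 to 3 and in the KO libraries, and many were high in WT replicate 4, WT replicate 5 or both. The count filter passed 14755 genes, 41 of the 48 among them, and of the 41 edgeR called 0 at an adjusted p under 0.05. The same held for 0% of all genes tested, and the adjusted p of the 41 ran from 0.325 to 0.888. At an unadjusted p under 0.05, 1 of the 41 was higher in KO libraries (2.44%, against 7.96% of all genes tested) and 2 were lower (4.88%, against 6.43%). The first was Cdkn1a, and the others were Cks1b (0.0162) and Cks2 (0.0481), with the unadjusted p in parentheses. Groups that did not overlap were found for 1 of 41 in the higher direction (2.44%, against 13.2% of all genes tested) and for 1 in the lower (2.44%, against 4.49%). These shares lie below those of all genes, so the counts single out no change of the list. DESeq2, run as an alternative, gave an adjusted p to 33 of the 48 and called 2 higher (6.06%, against 3.79% of all genes it tested) and 3 lower (9.09%, against 5.13%). Those were Cdkn1a and Bub1 in the higher direction and Cks1b, Cks2 and Tpx2 in the lower.

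Of the 41 tested genes, 30 had negative and 11 positive log2 changes, taken as KO minus WT, and positive changes made up 43.2% of all genes tested. Their median log2 change was −2.07, beside −0.42 over all genes. Without WT replicates 4 and 5 the median over the 37 that could still be fitted was −0.03, with 18 positive and 19 negative, beside a median of −0.15 over all genes. With libraries scaled by total count alone, the median of the 41 was −1.04 and that of all genes moved from −0.42 to 0.21. Leaving out WT replicate 5 alone gave −0.57, and leaving out WT replicate 4 alone gave −1.36. The size of the negative median thus depended on these 2 WT libraries. Of the 4 genes that could not be fitted without them, Ccnb2, Bub1b and Tpx2 had counts above 100 in both, and Cenpe in WT replicate 5 alone.

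The levels of these genes were concentrated in single libraries. For 23 of the 41 tested genes (56.1%) over 50% of the normalised CPM summed over the 8 libraries came from 1 library, against 28.4% of all genes tested. WT replicate 5 held the highest level of 20 of the 48 genes, WT replicate 4 of 12, KO replicates 1 to 3 of 3, 6 and 5, WT replicates 1 and 3 of 1 each, and WT replicate 2 of 0. Among the 41 tested genes, 19 were highest in WT replicate 5, 11 in WT replicate 4 and 4 in KO replicate 3. All genes tested were highest in WT replicates 1 to 5 for 8.18, 9.82, 9.62, 22.7 and 14.2%, and in KO replicates 1 to 3 for 6.2, 7.86 and 21.4%. The summed level of the 48 genes was 1692, 1817, 1564, 5209.6 and 8361 normalised CPM in WT replicates 1 to 5 and 1802, 2472 and 2243 in KO replicates 1 to 3. As shares of all counts, which TMM factors do not touch, they held 0.193, 0.197, 0.167, 0.206 and 0.568% in the WT libraries and 0.243, 0.362 and 0.29% in the KO libraries. By share, WT replicate 4 lay with WT replicates 1 to 3 and only WT replicate 5 was above the KO libraries, so the place of WT replicate 4 depended on the scaling. In CPM by total count the KO sums were 2430, 3620 and 2905. The inhibitor gene Cdkn1a made up 437, 562 and 492 of them, and Ccne2 409, 975 and 833. In the WT libraries Cdkn1a ran from 3.62 to 123 and Ccne2 from 13.2 to 397 on that scale.

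**Figure D2:**
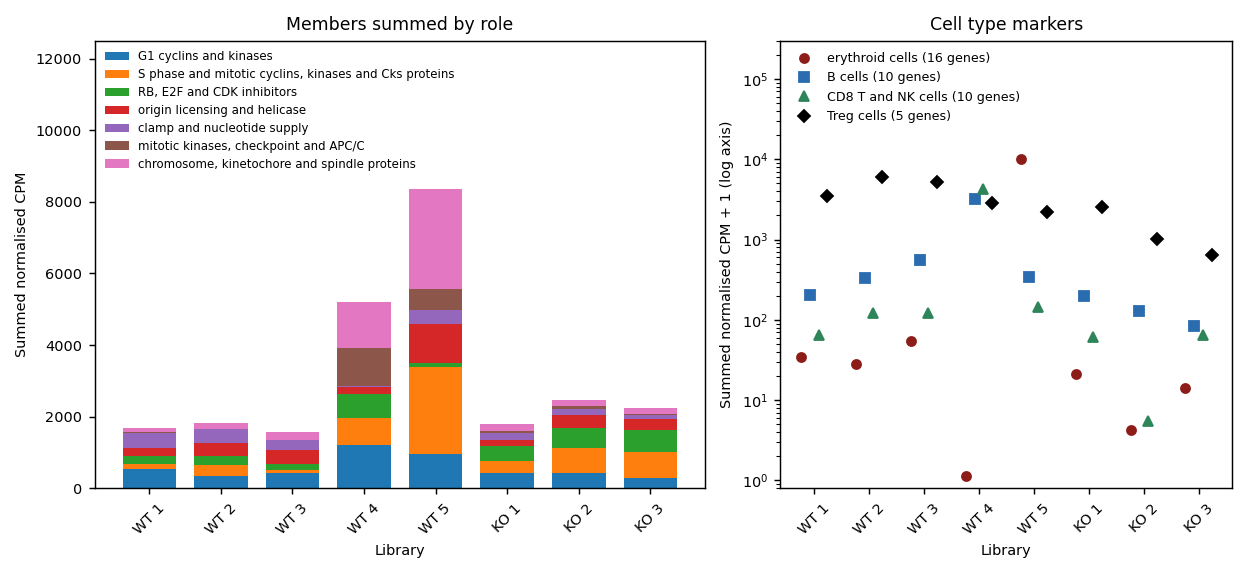
Left, summed normalised CPM of the 48 genes by role group in each library. Right, summed normalised CPM + 1 (log axis) of markers of erythroid, B, CD8 T and NK, and Treg cells. The tallest bars, WT 5 and WT 4, are the libraries with the highest erythroid sum and with the highest B and CD8 T and NK sums.

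The inhibitors, the retinoblastoma gene and the E2F genes come first, since the clearest separation of the groups lay here. Cdkn1a (ENSMUSG00000023067, chromosome 17, 29090976 to 29100727, plus strand, GENCODE M21 on mm10) encodes p21, which blocks cyclin-dependent kinases and is a well-known target of p53. Its counts were 696, 1075, 1374, 65 and 327 in WT replicates 1 to 5 and 3701, 2567 and 2121 in KO replicates 1 to 3. Each KO library thus lay above each WT library even in unscaled counts, though the KO libraries were the 3 shallowest. As normalised CPM it stood at 57.7, 93.2, 116, 9.13 and 45.6 in the WT libraries and at 324, 384 and 379.6 in the KO libraries. The means were 64.2 ± 41.5 (SD, n = 5) and 362 ± 33.6 (SD, n = 3), and the KO libraries were close to one another. This came to a log2 change of 2.50 (SE 0.76), with an unadjusted p of 0.00817 and an adjusted p of 0.325 in edgeR and of 0.0379 in DESeq2. Across the 15 alternatives the log2 change stayed between 2.05 and 3.40, and without WT replicates 4 and 5 it was 2.05. Of the 67 cell type markers, 5 also separated the groups completely in normalised CPM, with Ctla4, Cd3d, Nkg7 and Ighm lower and the progenitor marker Cd34 higher in each KO library. Of all genes tested, 13.2% did so in the higher and 4.49% in the lower direction. By total count alone the groups overlapped for Ctla4, Nkg7 and Ighm. Cd34 stood at 19.7, 26.6, 21.1, 4.21 and 12.6 in WT and at 43.5, 60.1 and 85.6 in KO libraries. The part of the cell makeup of the libraries in the levels of Cdkn1a and Cks1b was not tested. An annotated gene on the opposite strand overlaps Cdkn1a, and the library kit does not mark strand, so their reads cannot be told apart.

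Cdkn1b, which encodes the related inhibitor p27, a brake of resting T cells, did not share this pattern. It stood at 29.4, 41.6, 6.64, 147 and 0.558 in WT replicates 1 to 5 and at 23.2, 7.63 and 1.25 in KO replicates 1 to 3, and the groups overlapped. Per kilobase of transcript, a scale on which genes can be compared, Cdkn1a lay above Cdkn1b in 7 of 8 libraries, the exception being WT replicate 4. The retinoblastoma gene Rb1 (ENSMUSG00000022105, chromosome 14, 73183673 to 73325822, minus strand) stood at 87.5, 66.9, 14.7, 288 and 8.09 in the WT and at 16.1, 14.7 and 3.4 in the KO libraries. 2 KO values lay in the low part of the WT range and KO replicate 3 below it (log2 change −3.03, SE 1.36, adjusted p = 0.348 in edgeR). Rb1 overlaps 4 annotated genes, 2 of them on the opposite strand. E2f2, an activating E2F factor, stood at 32.3, 55, 45.6, 206.5 and 56.1 in the WT and at 50.03, 155 and 219.6 in the KO libraries, and the groups overlapped, with WT replicate 4 near KO replicate 3. E2f1, another activator, was far lower, at 3.4, 4.08, 2.1, 0 and 0.279 in WT and at 3.94, 5.38 and 6.62 in KO libraries, and only WT replicate 2 reached the KO values. Per kilobase E2f2 exceeded E2f1 in all 8 libraries. Of this role group of 5, 3 had positive and 2 negative log2 changes.

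RefSeq gives 2 start sites for Cdkn1a, and the 300-base window of each (250 bases before to 50 after the start, GRCm38.p6, plus strand) is shown because this gene separated the groups. No capitals appear in them, since none of the 3 motifs described further on was found in these letters.
Cdkn1a, chr17:29090729-29091028: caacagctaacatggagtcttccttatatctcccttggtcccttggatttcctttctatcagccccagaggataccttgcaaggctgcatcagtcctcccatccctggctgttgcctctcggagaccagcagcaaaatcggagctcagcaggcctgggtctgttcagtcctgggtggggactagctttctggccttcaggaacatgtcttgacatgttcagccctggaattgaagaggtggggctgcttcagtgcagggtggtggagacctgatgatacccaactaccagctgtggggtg
Cdkn1a, chr17:29093519-29093818: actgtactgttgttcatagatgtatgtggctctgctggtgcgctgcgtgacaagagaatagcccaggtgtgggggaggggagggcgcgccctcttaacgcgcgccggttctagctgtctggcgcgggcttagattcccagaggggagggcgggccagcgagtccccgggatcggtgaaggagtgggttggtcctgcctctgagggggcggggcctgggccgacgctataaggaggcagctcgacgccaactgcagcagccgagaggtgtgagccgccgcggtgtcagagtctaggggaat

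**Figure D3:**
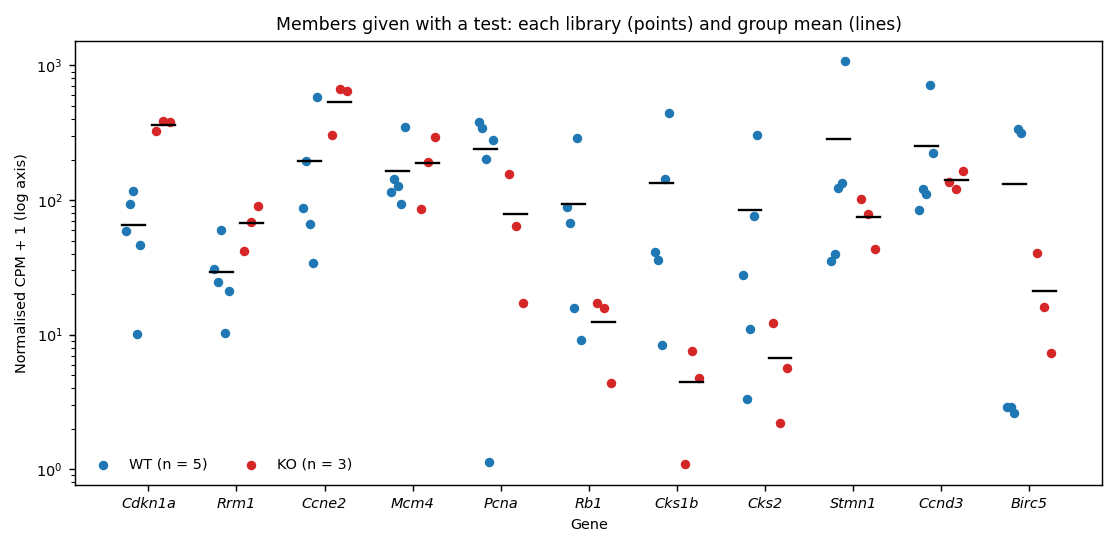
Normalised CPM + 1 (log axis) of the 11 genes given with a test, with 1 point per library (blue WT, n = 5; red KO, n = 3) and a line at each group mean. On this scale the groups do not overlap for Cdkn1a, which is higher in KO, and for Cks1b, which is lower in KO.

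The G1 cyclins and their kinases were present in both groups, and the groups overlapped for all 4 genes. Ccnd3 (ENSMUSG00000034165, chromosome 17, 47505051 to 47599691, plus strand), the cyclin D that lymphocytes use most, stood at 83.3, 121, 111, 708 and 224 in the WT and at 136, 121 and 162 in the KO libraries. WT replicate 4 was far above the rest, and the KO libraries lay within the range of the other WT libraries. The log2 change was −0.84 (SE 0.82, adjusted p = 0.583 in edgeR), and it turned to 0.43 without WT replicates 4 and 5 and to 0.30 with total-count scaling. Ccnd2, a cyclin D induced by growth signals, had 297, 166, 188, 281 and 704 in WT and 205, 246 and 106 in KO libraries, with WT replicate 5 highest. Per kilobase, Ccnd3 lay above Ccnd2 in 7 of 8 libraries. Cdk6 had 96.3, 17.9, 116, 21.4 and 3.07 in the WT libraries and 64.1, 42.2 and 13.1 in the KO libraries. Cdk4 had 54.9, 35.1, 0.925, 207 and 21.3 in WT and 9.18, 19.4 and 0.179 in KO libraries, lowest in KO replicate 3 and next lowest in WT replicate 3. Both kinase genes thus spread widely within each group. The fitted log2 change was below 0 for all 4 (median −0.83), and of them only Ccnd3 turned positive without WT replicates 4 and 5.

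Among the S phase cyclins, Ccne2 carried nearly all cyclin E RNA. Ccne2 (ENSMUSG00000028212, chromosome 4, 11191351 to 11204779, plus strand), which activates Cdk2 at the start of S phase, stood at 86, 193, 65.9, 33.3 and 584 in the WT and at 304, 666 and 644 in the KO libraries. The KO libraries lay above 4 of the 5 WT libraries, and WT replicate 5 lay among them (log2 change 1.48, SE 0.88, adjusted p = 0.407 in edgeR). The log2 change stayed positive in all 15 alternatives, between 1.10 and 2.56. Its partner gene Ccne1 had 28 counts in KO replicate 1, at most 2 elsewhere and was not tested. Per kilobase Ccne2 was higher than Ccne1 in all 8 libraries. Cdk2, the kinase that cyclins E and A bind, had 2.82, 51.7, 2.52, 356 and 0.558 in the WT and 1.66, 5.83 and 9.31 in the KO libraries, high in WT replicates 2 and 4 only.

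The cyclins of G2 and mitosis were high in WT replicate 5. Ccna2 (cyclin A2) stood at 0.166, 0.0867, 0.42, 0.421 and 212 in the WT and at 0, 0.15 and 1.97 in the KO libraries. It had at least 10 counts in only 2 libraries, did not pass the count filter and was not tested. Ccnb1 (cyclin B1) stood at 0.332, 26.4, 1.26, 1.26 and 329.9 in WT and at 38.7, 2.24 and 1.61 in KO libraries. Ccnb2 (cyclin B2) stood at 0, 0, 0.0841, 149 and 569 in WT and at 2.54, 0 and 65.7 in KO libraries. WT replicate 5 was highest for all 3, and among the KO libraries Ccnb1 was highest in replicate 1 and Ccnb2 in replicate 3. Cdk1, their kinase, was nearly undetected, with 102 counts in KO replicate 2 and at most 2 in the other libraries. Counts of 0 allow up to 3 counts, which here correspond to 0.249 to 0.537 normalised CPM. High Ccna2 and Ccnb1 in WT replicate 5 thus stood beside 0 counts of Cdk1 in the same library.

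The Cks proteins, small subunits that tie cyclin-dependent kinases to their phosphorylated substrates, were lower in KO libraries than in most WT libraries. Cks1b (ENSMUSG00000028044, chromosome 3, 89415472 to 89418383, minus strand) stood at 40.4, 34.9, 7.4, 143 and 442 in WT replicates 1 to 5 and at 0.0875, 6.58 and 3.76 in KO replicates 1 to 3. No KO value reached the lowest WT value in normalised CPM, though WT replicate 3 and KO replicate 2 were close (log2 change −5.26, SE 1.82, adjusted p = 0.325 in edgeR and 0.00641 in DESeq2). Scaled by total count alone, Cks1b was 9.63 CPM in KO replicate 2 and 7.88 in WT replicate 3, so the groups overlapped on that scale. Without WT replicates 4 and 5, the libraries with its highest levels, the log2 change was −2.90. Cks2 (ENSMUSG00000062248, chromosome 13, 51645232 to 51650660, plus strand) stood at 26.8, 2.34, 10.00, 74.7 and 302 in WT and at 11.1, 1.2 and 4.65 in KO libraries, with WT replicate 2 below 2 of the 3 KO libraries. The fitted log2 change, −3.87 (SE 1.72), was given an adjusted p of 0.346 by edgeR and 0.0377 by DESeq2, and it came to −1.20 without WT replicates 4 and 5. Both genes kept a negative log2 change in all 15 alternatives. Among the 6 tested cyclin, kinase and Cks genes of S phase and mitosis, 1 had a positive log2 change, Ccne2. Their deposited values were not all whole numbers, as happens where an estimate divides reads between similar genes, and 31 of the 48 genes had such values.

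Of the replication genes, those of the MCM2 to MCM7 ring, the helicase that opens origins, were detected unevenly. Mcm4 (ENSMUSG00000022673, chromosome 16, 15623897 to 15637400, minus strand) was detected in all 8 libraries, at 114, 142, 125, 92.3 and 349 in the WT and at 84.1, 189 and 292 in the KO libraries, and the groups overlapped. Its log2 change was 0.20 (SE 0.69, adjusted p = 0.888 in edgeR), and it turned negative in 4 of 15 alternatives, DESeq2 among them. Per kilobase Mcm4 was the highest of the 6 in 7 libraries, and Mcm2 was in WT replicate 2. All 6 MCM genes had at least 10 counts in WT replicates 3 and 5 and in KO replicates 1 and 2, 5 of them in WT replicates 1 and 2 and 4 in KO replicate 3. In WT replicate 4 only Mcm4 did, and Mcm3, Mcm6 and Mcm7 were at 0 there in the deepest library of the series. The subunits form a complex of equal parts as protein, and their RNA levels in 1 library spanned a wide range, in WT replicate 5 from 13.3 to 97.2 normalised CPM per kilobase.

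Mcm2 stood at 3.24, 154, 68.8, 0.702 and 243 in the WT and at 17.1, 39 and 16.1 in the KO libraries. Mcm6 stood at 36.2, 21.4, 0.925, 0 and 227 in WT and at 11.5, 24.8 and 4.47 in KO libraries. Both were highest in WT replicate 5 and nearly absent in WT replicate 4. Mcm3 ranged from 0 to 71 in WT and from 1.79 to 19.1 in KO libraries. The corresponding ranges were 0.14 to 44.9 and 0.537 to 49 for Mcm5, and 0 to 151 and 0 to 18.7 for Mcm7. The groups overlapped for all of them. Of the loaders that place the ring on DNA, Cdc6 had at most 14 counts in any library and was not tested, and Cdt1 ranged from 0 to 8.55 in WT and from 0 to 16.2 in KO libraries. Gins2, a part of the active helicase, had 10.5, 19.8, 23.8, 115 and 4.46 in WT and 0.962, 16.1 and 0 in KO libraries, highest in WT replicate 4, where most MCM genes were lowest. Of this role group, 3 tested genes had positive and 5 negative log2 changes.

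Pcna and the ribonucleotide reductase genes differed in direction. Pcna (ENSMUSG00000027342, chromosome 2, 132249162 to 132253314, minus strand) encodes the clamp that holds DNA polymerase on its template. It stood at 379, 344, 201, 0.14 and 278 in the WT and at 155, 62.7 and 16.1 in the KO libraries. In normalised CPM all 3 KO libraries lay below 4 of the 5 WT libraries, but WT replicate 4 had 1 count. Scaled by total count alone, Pcna was 209 CPM in KO replicate 1 and 189 in WT replicate 5, so KO replicate 1 lay higher there. The log2 change of −1.62 (SE 1.48) had an adjusted p of 0.56 in edgeR. Without WT replicate 4 it was −1.95, with an adjusted p of 0.295. Rrm1 (ENSMUSG00000030978, chromosome 7, 102441695 to 102469771, plus strand), the large subunit of ribonucleotide reductase, stood at 29.5, 23.6, 59.2, 9.27 and 20.1 in WT and at 40.8, 68 and 89.8 in KO libraries. The KO libraries lay above the WT libraries except WT replicate 3, with a log2 change of 1.22 (SE 0.88, adjusted p = 0.475 in edgeR) that was positive in all 15 alternatives. Rrm2, the small subunit, stood at 0.249, 8.76, 20.3, 0 and 86.6 in WT and at 0, 5.68 and 0 in KO libraries. KO replicates 1 and 3 thus had 0 counts of Rrm2, although Rrm1 was highest of all in KO replicate 3. Per kilobase Rrm1 exceeded Rrm2 in 7 of 8 libraries, all but WT replicate 5. Thymidine kinase, Tk1, a salvage enzyme of S phase, stood at 0.913, 6.33, 0.588, 0.983 and 0.279 in WT and at 0.612, 23.2 and 3.4 in KO libraries, with KO replicate 2 far above the rest. Of these 4 genes, Rrm1 and Tk1 had positive and Pcna and Rrm2 negative log2 changes.

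The kinases and checkpoint genes of mitosis were close to 0 in most libraries and stood out in WT replicates 4 and 5. The summed level of the 8 genes of this group was 12, 20.8, 15.8, 1079 and 575 in WT replicates 1 to 5 and 52.8, 99 and 24.2 in KO replicates 1 to 3. By this sum the KO libraries lay above WT replicates 1 to 3 and below WT replicates 4 and 5. Birc5 (ENSMUSG00000017716, chromosome 11, 117849251 to 117855743, plus strand) encodes survivin, a partner of Aurora B in the chromosomal passenger complex. It stood at 1.91, 1.91, 1.6, 338 and 312 in the WT and at 39.2, 15.1 and 6.26 in the KO libraries, with the KO libraries again between those WT libraries. Its log2 change was −2.70 (SE 1.97, adjusted p = 0.482 in edgeR) and turned to 3.47 without WT replicates 4 and 5, with an adjusted p of 0.279. Aurkb, the kinase of that complex, had 2089 counts in WT replicate 4 and 0 in the other 7 libraries. Aurka, the spindle pole kinase, had 44 counts in KO replicate 3 and 0 elsewhere.

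Plk1, the Polo-like kinase that drives mitotic entry, stood at 8.71, 16.3, 0, 283 and 0 in the WT and at 0, 20.6 and 0 in the KO libraries, and 4 of the 8 libraries had 0 counts. Bub1b, a spindle checkpoint gene, stood at 0, 0.0867, 0, 164 and 14.5 in WT and at 0.262, 7.78 and 0.895 in KO libraries, again highest in WT replicate 4. Its relative Bub1 had 51 and 18 counts in KO replicates 2 and 3, at most 1 elsewhere, and fell below the edgeR filter, while DESeq2 gave it an adjusted p of 0.0409. Ube2c, the ubiquitin-conjugating enzyme of the anaphase-promoting complex, stood at 1.16, 1.39, 13.3, 0.421 and 249 in WT and at 13.2, 46.5 and 3.04 in KO libraries, highest in WT replicate 5 and next in KO replicate 2. Cdc20, which activates that complex, did not exceed 16 counts in any library. Of the 5 tested genes of this role 1, Cdc20, had a positive log2 change. Genes that act together in mitosis were thus high in different libraries, Aurkb, Plk1 and Bub1b in WT replicate 4 and Ube2c in WT replicate 5, and Birc5 in both.

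Genes of chromosome, kinetochore and spindle proteins had the largest share of the excess in WT replicate 5. Their summed level was 134, 154, 212, 1287 and 2807 in WT replicates 1 to 5 and 192, 163 and 172 in KO replicates 1 to 3, so the KO libraries lay within the range of WT replicates 1 to 3. Mki67, which encodes the proliferation marker Ki-67, stood at 11.2, 5.2, 44.7, 89.8 and 167 in the WT and at 4.9, 33.2 and 5.55 in the KO libraries. Top2a, the topoisomerase that untangles replicated DNA, stood at 49.6, 64.4, 7.82, 2.81 and 319 in WT and at 17.1, 12 and 12 in KO libraries, and the KO libraries lay between WT replicate 3 and WT replicate 1. Stmn1 (ENSMUSG00000028832, chromosome 4, 134468320 to 134473843, plus strand), a regulator of microtubules, had 34, 38.5, 122, 132 and 1079 in WT and 100.4, 77.6 and 42.6 in KO libraries. Its log2 change was −1.93 (SE 1.22, adjusted p = 0.428 in edgeR), and it turned to 0.18 without WT replicates 4 and 5. Per kilobase its mean level over the 8 libraries was 210.3, the highest of the 48 genes, but without WT replicate 5 it was 80.9, below Cdkn1a at 211. By the median per kilobase, Pcna at 117 and Cdkn1a at 113 lay above Stmn1 at 92.

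Cenpa, the histone H3 variant that marks centromeres, stood at 34.2, 35.1, 29.3, 862 and 352 in the WT and at 57.5, 10.5 and 95.6 in the KO libraries, high in WT replicates 4 and 5. Cenpe, a kinetochore motor, had 3787 counts in WT replicate 5 and at most 12 in the other libraries. Kif11, the motor that separates spindle poles, stood at 1.41, 2.25, 2.27, 0 and 196 in WT and at 2.62, 9.12 and 7.16 in KO libraries. Cenpf, a large kinetochore protein, stood at 1.83, 5.64, 4.54, 1.97 and 59.4 in WT and at 4.99, 14.7 and 3.94 in KO libraries. For both, WT replicate 5 was far above the rest and KO replicate 2 was the next highest. Tpx2, which activates Aurora A on the spindle, stood at 0.332, 0.347, 0.0841, 198 and 99 in WT and at 2.19, 0.15 and 0.179 in KO libraries, high in WT replicates 4 and 5 and near 0 elsewhere. Nusap1 stayed between 0 and 7.81 in all libraries. In this role group 1 of 9 genes had a positive log2 change with all libraries, and 5 of the 7 that could be fitted did without WT replicates 4 and 5.

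**Figure D4:**
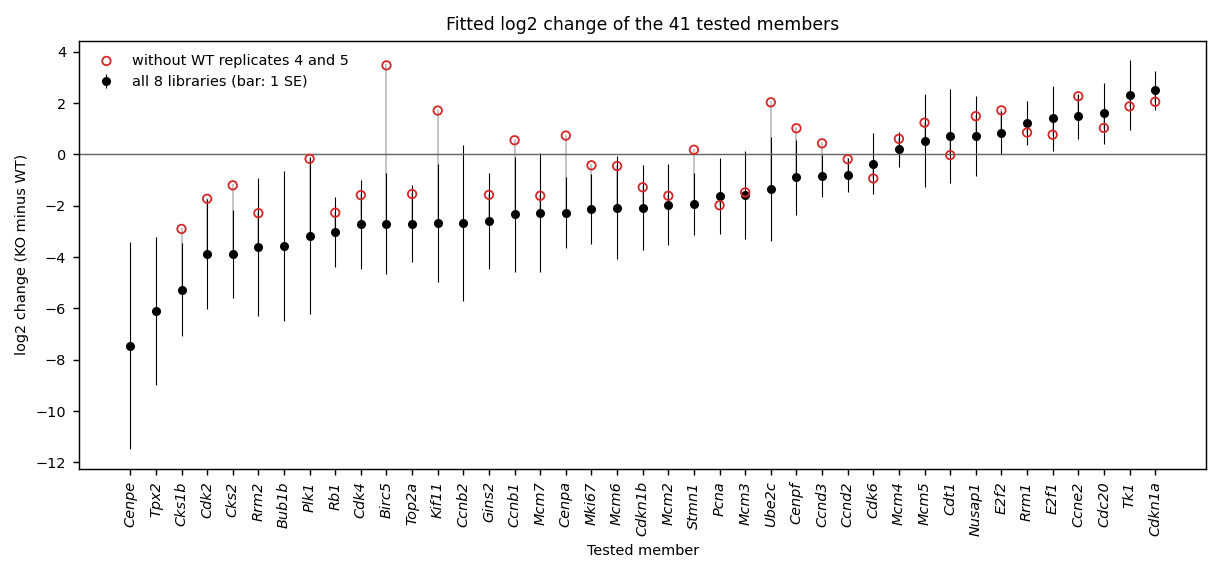
Fitted log2 change (KO minus WT) of the 41 tested genes with all 8 libraries (black, bar 1 SE) and without WT replicates 4 and 5 (red, 37 genes). Many negative values move to or above 0 without these libraries, while those of Cks1b, Rb1 and Pcna stay below 0 and that of Cdkn1a stays above it.

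Promoter windows of 39 of the 48 genes were found in RefSeq (GRCm38.p6), 43 windows in all, and were searched on both strands for 3 sequence elements that cell cycle genes are known to carry. The CHR (TTTGAA), an element of genes of G2 and mitosis, was found in 15 of 43 windows (34.9%), against 17.9% of all 32851 windows. The CCAAT box (CCAAT) was found in 31 windows (72.1%, against 37.4%), and both elements together in 15 (34.9%, against 6.95%). An E2F word (TTTCCCGC, TTTCGCGC, TTTGCCGC or TTTGGCGC) was found in 9 (20.9%, against 2.26%). All 15 windows with a CHR thus also held a CCAAT box. These are matches of letters, not measured binding sites, and the cell cycle genes were listed for functions known to go with these elements. The CHR was found for Aurka, Bub1b, Ccnb2, Cdc20, Cdk1, Cenpa, Cenpf, Cks1b, E2f2, Kif11, Mcm2, Mki67, Plk1, Top2a and Ube2c. Of these 15, 8 were highest in WT replicate 5, 3 in WT replicate 4, 3 in KO replicate 3 and 1 in KO replicate 2. For all genes tested the shares were 14.2, 22.7, 21.4 and 7.86% in the same order, though Aurka and Cdk1 were not tested. Of all 48 genes of the list, 20, 12, 5 and 6 were highest in these libraries, so a high level in WT replicate 5 was not particular to genes with a CHR. E2F words were found for the helicase genes Mcm3, Mcm5, Mcm6 and Mcm7, the loaders Cdc6 and Cdt1, the kinases Cdk1 and Cdk2, and E2f2.

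Of these windows, 1 of a Cks gene that was lower in KO libraries, 1 of a gene highest in WT replicate 5 and 1 of the helicase are shown, 5′ to 3′ on the strand of the gene, with the matches in capitals. In the Mcm6 window a pair of E2F words on opposite strands overlap and form 1 run of capitals, and in the Ube2c window a pair of CCAAT boxes do.
Cks1b, chr3:89418242-89418541, minus strand: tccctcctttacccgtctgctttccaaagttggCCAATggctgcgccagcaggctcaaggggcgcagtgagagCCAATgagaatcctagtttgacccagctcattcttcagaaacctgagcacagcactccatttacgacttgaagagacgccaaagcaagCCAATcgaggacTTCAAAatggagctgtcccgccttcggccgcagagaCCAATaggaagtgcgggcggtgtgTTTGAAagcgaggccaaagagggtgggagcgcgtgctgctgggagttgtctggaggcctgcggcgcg
Ube2c, chr2:164769679-164769978, plus strand: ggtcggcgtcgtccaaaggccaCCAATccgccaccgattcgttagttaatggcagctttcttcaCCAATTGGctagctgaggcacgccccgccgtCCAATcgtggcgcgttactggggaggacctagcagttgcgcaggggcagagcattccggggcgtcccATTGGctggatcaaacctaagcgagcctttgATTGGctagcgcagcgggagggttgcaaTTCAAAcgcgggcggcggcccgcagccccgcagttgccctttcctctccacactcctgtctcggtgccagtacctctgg
Mcm6, chr1:128359656-128359955, minus strand: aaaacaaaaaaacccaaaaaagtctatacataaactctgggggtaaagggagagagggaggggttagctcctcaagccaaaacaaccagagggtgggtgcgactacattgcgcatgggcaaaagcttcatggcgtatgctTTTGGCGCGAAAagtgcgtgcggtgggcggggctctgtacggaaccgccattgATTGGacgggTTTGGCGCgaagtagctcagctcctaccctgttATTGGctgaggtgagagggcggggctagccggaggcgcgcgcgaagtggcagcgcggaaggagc

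Other genes of the same machinery, 122 in a separate list, were read from the same fit, and 95 of them were tested. Positive log2 changes were fitted for 25 and negative ones for 70. Their median was −1.25, which became −0.47 without WT replicates 4 and 5. None had an adjusted p under 0.05 in edgeR, and at an unadjusted p under 0.05 6 were higher (6.32%) and 5 lower (5.26%), shares not above those of all genes given earlier. In the lower direction stood Orc4, a subunit of the complex that marks origins, at 158, 214, 131, 265 and 249 in the WT and 35.2, 20.5 and 30.6 in the KO libraries. Each KO library lay below each WT library (log2 change −2.82, SE 0.67, adjusted p = 0.325 in edgeR and 5.72e-05 in DESeq2). Prim1, the catalytic subunit of DNA primase, stood at 109.7, 76.6, 124, 0.281 and 99.2 in WT and at 1.14, 1.5 and 1.97 in KO libraries, low in all KO libraries and in WT replicate 4. In the higher direction stood the replication gene Mcm10, at 163, 204, 110.04, 108 and 313 in WT and at 322, 531 and 864 in KO libraries, with each KO library above each WT library (log2 change 1.67, SE 0.58, adjusted p = 0.325 in edgeR and 0.172 in DESeq2). The kinetochore gene Nuf2 was low, at 1.41, 1.56, 2.94, 0 and 1.12 in WT and at 16.4, 15.3 and 78.6 in KO libraries, and the groups did not overlap. Tyms, which makes thymidylate, had 174, 185, 166, 130.2 and 222 in WT and 344, 568 and 965 in KO libraries, again without overlap. Hmgb2, a chromatin protein abundant in dividing cells, had 232, 235, 691, 2362 and 1863 in WT and 237, 174 and 87 in KO libraries, high in WT replicates 4 and 5. Groups that did not overlap were found for 7 of the 95 in the higher direction (7.37%) and for Orc4 alone in the lower (1.05%), below the 13.2% and 4.49% of all genes tested.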

How the data were processed

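RNA of sorted mouse Treg cells was sequenced in 8 libraries (5 WT, 3 KO) with SMART-Seq v4, a low-input method that leaves strand unmarked, per the labels' protocols. Groups and replicate numbers came from the sample titles. Per gene, the authors deposited expected counts and a length. The tools RSEM, HISAT2, StringTie, fastp and DESeq2 and the build mm10 are named in the submitters' processing notes, without roles or versions. The authors' group means were not used. The table held 0 columns of other samples. No 2 libraries of a group agreed within sampling noise (lowest chi-square per degree of freedom 58.3).

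Expected counts were rounded and filtered with filterByExpr at a minimum count of 10. KO was compared with WT by edgeR's two-sided quasi-likelihood test with TMM factors and no covariates (edgeR 4.0.16, R 4.3.3). Benjamini-Hochberg adjustment ran over the 14755 genes, and calls needed an adjusted p under 0.05. The fit was tested on simulated counts whose libraries shared the same gene means, apart from genes changed between the groups. Libraries that stand apart in composition, as some do here, were not simulated. The SE is the size of the log2 change divided by √F. Depth was 4314445 to 17977089 counts per library, and limits from counts of 0 (3 counts) cover counting error only. Alternatives were other scalings, no filter, DESeq2 1.42.0, a replicate block and left-out libraries. Coordinates are from GENCODE M21 (mm10), and promoter windows from RefSeq (GRCm38.p6); 9 of the 48 genes had no window.

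The 48 genes and the other lists (122 of 123 further cell cycle symbols and 67 of 67 marker symbols found) were chosen with earlier results of these data known. Each of the 48 is given with its values. Statistics are given for the gene of highest mean level per kilobase in each role group, and for up to 3 genes per direction with the smallest unadjusted p at a mean log2 CPM of at least 3. Of the other cell cycle genes, up to 3 per direction were named by the same rule of p and level. Medians, counts and ranges over the list are descriptions without a test.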

Additional observations from a re-analysis of the deposited data

Results flagged for a closer look

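In the WT group of 5 libraries, 26 of the 48 genes had 1 library that lay far above the other 4, with a gap to the next library of more than 71% of the group's range. For normally distributed values chance gives such a gap in about 1 of 20 groups, but these levels are skewed. Among all 14755 genes tested 27.3% had a gap on either side, with 1 library far above the rest for 3901 and far below for 123. Among the 41 tested genes of the list the share was 58.5%, with 24 above and 0 below, and the genes are not independent of one another. WT replicate 5 was that library for 15 genes and WT replicate 4 for 10, and no library lay far below the rest. The KO group of 3 was too small for this comparison.

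In WT replicate 5 the cyclin genes stood out, with normalised CPM of 704 for Ccnd2, 584 for Ccne2, 212 for Ccna2, 329.9 for Ccnb1 and 569 for Ccnb2. So did Cks2 at 302, the replication genes Mcm4 at 349, Mcm6 at 227 and Rrm2 at 86.6, and Ube2c at 249. Of the chromosome and spindle genes, Top2a stood at 319, Cenpe at 528, Cenpf at 59.4, Kif11 at 196 and Stmn1 at 1079 normalised CPM. This library also had 9 counts of Foxp3, which was likewise low in WT replicate 4 and KO replicate 2, and the highest erythroid marker sum. The part of such cells in these levels was not tested.

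In WT replicate 4 the genes were of other roles. The G1 genes Ccnd3 at 708 and Cdk4 at 207, the kinase Cdk2 at 356, and Rb1 at 288, E2f2 at 206.5 and Cdkn1b at 147 normalised CPM stood apart there. So did Gins2 at 115 and the mitotic genes Aurkb at 293, Plk1 at 283 and Bub1b at 164. Its TMM factor of 0.4 was the lowest of the 8, so its normalised CPM lie above levels scaled by total count alone. The remaining case was Tk1, at 6.33 normalised CPM in WT replicate 2, where the absolute level was low.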

How the results depend on the processing

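Of the 11 genes given with a log2 change and adjusted p, 7 kept their direction under all 15 alternatives. Ccnd3 turned to 0.30 with total-count scaling, 0.42 with the replicate block and 0.43 without WT replicates 4 and 5, and leaving out 1 library gave −1.04 (without WT replicate 1) to 0.052 (without WT replicate 4). Mcm4 turned to −0.16 with DESeq2's size factors, −0.13 without the count filter and −0.20 with DESeq2, and leaving out 1 library gave −0.29 (without KO replicate 3) to 0.76 (without WT replicate 5). Birc5 turned to 3.10 with the replicate block and 3.47 without WT replicates 4 and 5, and Stmn1 to 0.41 and 0.18. WT replicates 4 and 5 have no KO library of their number, so under the block they do not enter the estimate of the change. Replicate numbers came from the titles only: same-numbered libraries correlated at 0.0175, 0.0202 and 0.0466 in their deviations from the group means, and of the KO libraries only replicate 3 correlated best with the WT library of its own number. No correlation passed 0.1, so the libraries were taken to share only a number. With the replicate block the median log2 change of the tested genes of the list was 0.30, with 22 positive, and without WT replicates 4 and 5 it was −0.026, with 18 positive. Leaving out 1 library gave medians of −2.24 to −0.57, the last without WT replicate 5. The number of all genes called by edgeR was 0 in the reported fit, 1 with total-count scaling and 1 without the filter, while DESeq2 called 1380 genes and 5 of the list; the cause was not tested. Across the other alternatives edgeR called 0 genes. At these depths a gene at 0 counts may reach 0.249 to 0.537 normalised CPM. The 3 KO libraries limit what can be detected, and 7 genes of the list were below the count filter.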
